A study of Mus musculus with 16 samples.

Results

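The 10 genes described here encode parts of the autophagy machinery, and they were picked by symbol from the 27179 genes of the count table. They are Ulk1, Becn1, Wipi1 and Atg9a, which act while the autophagosome forms, the ATG8 family members Map1lc3a, Map1lc3b, Gabarap, Gabarapl1 and Gabarapl2, and the cargo receptor Sqstm1. All 10 were among the 14288 genes that passed the filter on low counts. RNA was sequenced from mouse embryonic stem (ES) cells in 16 libraries, 2 in each of 8 groups. The cells had been kept in 2i/LIF, which is free of serum, or in serum/LIF+2i, which holds 10% serum. Both media hold the cytokine LIF, 2 mM glutamine, 3 uM CHIR99021 (an inhibitor of GSK3) and 1 uM PD0325901 (an inhibitor of MEK), and all cells had first been adapted from serum/LIF for 3 passages and were used for up to 9 passages. Cells at 0 h were the controls, and the others were collected after 12, 24 or 40 h in serum-free medium lacking LIF and both inhibitors, which lets them leave naive pluripotency, a culture state akin to the epiblast before implantation. The DMEM part of the exit medium also differed, since cells from serum/LIF+2i were given DMEM bought without glutamine, with 2 mM glutamine added back. The medium before exit and the base of the exit medium therefore cannot be told apart. The labels give no genotype or line, and nothing in them says that replicates came from separate cultures, so p-values measure only the spread between these libraries.

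Macroautophagy encloses part of the cytoplasm in a double membrane, the autophagosome, and delivers it to the lysosome, where the cargo is broken down and its amino acids and lipids are returned to the cell. The kinase ULK1 starts the process and is held in check by mTORC1 when amino acids are plentiful. It acts on the class III PI3-kinase complex that contains Beclin 1 (Becn1), whose lipid product recruits WIPI proteins, while vesicles with the scramblase ATG9A seed the new membrane. ATG8 proteins, of the LC3 branch (Map1lc3a, Map1lc3b) and the GABARAP branch (Gabarap, Gabarapl1, Gabarapl2), are then joined to lipid in that membrane and bind receptors such as p62 (Sqstm1). Flux through the pathway is set largely by proteins and their modification, so the RNA levels given here are not a measure of autophagic activity.

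Total counts were 5931381 to 11142744 per library, and 16393 to 18392 genes were detected. Levels are given in CPM, the count scaled to the library total. The ES cell markers Pou5f1, Sox2, Nanog and Zfp42 summed to between 1961 and 2368 CPM at 0 h and between 851 and 885 CPM at 40 h. The fall was not shared by all 4. Pou5f1 had means of 641 and 635 CPM at 0 and 40 h from 2i/LIF, and 707 and 676 CPM from serum/LIF+2i. From 2i/LIF, Nanog went from 665 to 27.8 CPM, Zfp42 from 335 to 47.4 CPM and Sox2 from 358 to 142 CPM. These genes fell from serum/LIF+2i as well. Genes listed as markers of other cell types moved with time as well, but whether such cells were present was not tested. The 4 neural genes (Sox1, Pax6, Neurog2, Tubb3) went from 28.1 to 47.4 CPM in sum at 0 h to 86.3 to 123 CPM at 40 h. At 0 h nearly all of this was Tubb3, with means of 46.3 CPM in 2i/LIF and 25.4 CPM in serum/LIF+2i. Neurog2 stayed near 0 throughout, and Pax6 from 2i/LIF went from 9.81 CPM at 24 h to 6.68 CPM at 40 h. The 5 trophoblast genes, with Tfap2c the main one, went from 62.3 to 80.0 CPM at 0 h to 3.34 to 8.22 CPM at the later times. The 5 primitive endoderm genes summed to at most 7.16 CPM and the 5 fibroblast genes to at most 10.0 CPM, with Postn at 0 counts in all libraries. The 4 genes of 2-cell-like cells summed to between 0.587 and 34.6 CPM. Their part in the changes given here was not tested. In bulk RNA, fewer cells of a type and less RNA per cell cannot be told apart.

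Where the reads of a member could be shared with another gene, its level is uncertain. Per GENCODE vM21 on mm10, 5 members share exon bases with a gene on the other strand, and whether counting used strand is not given in the sources used here. The longest overlaps were 3104 bases for Becn1 with Cntd1 and 580 bases for Sqstm1 with Mrnip. Over all libraries Becn1 had 7663 counts against 317 for Cntd1, and Sqstm1 had 33033 against 1531 for Mrnip. Other neighbours were not so far below the member. Atg9a had 2739 counts against 3340 for Ankzf1 (46 shared bases), and Map1lc3b had 8276 against 5981 for Zcchc14 (58 shared bases). Gabarapl1 had 2264 counts against 2 for 1700101I11Rik (570 shared bases). Of all 50-base stretches of their transcripts, 30.2% recurred in other genes for Atg9a (nearly all in Gm29253, which the table does not hold), 12.2% for Gabarapl2 and 5.77% for Map1lc3b, and under 1% for the other members. Gene positions given below are from the same annotation.

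RNA of several of these genes fell as the cells left the naive state. After 40 h, 6 of 10 members were lower and 0 were higher in cells from 2i/LIF, and 6 were lower and 2 higher in cells from serum/LIF+2i. Ulk1, Gabarapl2, Map1lc3b and Gabarap fell from both media at every time tested. Becn1 was called lower at the same times. Its falls were smaller than those of these genes, except at 12 h from 2i/LIF. There its log2 change was -0.46 and that of Gabarapl2 -0.39. The calls of Becn1 did not hold under all settings, and at 40 h from 2i/LIF 5 members were lower without it. No change was called for Map1lc3a. Sqstm1 moved in opposite directions, falling by 40 h in cells from 2i/LIF and rising in cells from serum/LIF+2i.

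These counts have to be read against how many genes moved at all. At 40 h, 34.7% of all genes tested were lower and 34.1% higher in cells from 2i/LIF, and 35.3% were lower and 35.3% higher in cells from serum/LIF+2i. A gene counted as called at an adjusted p under 0.05 in edgeR's quasi-likelihood test. At 12 h the members stood at 0 higher and 7 lower from 2i/LIF (background 21.0% and 23.7%) and at 1 higher and 7 lower from serum/LIF+2i (25.3% and 25.9%). At 24 h they stood at 0 higher and 6 lower (29.2% and 29.6%), and at 2 higher and 6 lower (32.4% and 32.0%). The median log2 change of the 10 members at 40 h was -0.33 from 2i/LIF and -0.56 from serum/LIF+2i, beside 0.01 and -0.00 over all genes. Past 2-fold at 40 h were 4 members from 2i/LIF and 3 from serum/LIF+2i, among 29.4% and 29.5% of all genes. All exit effects of a medium share the 0 h libraries of that medium, so they are not independent of each other.

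**Figure D1:**
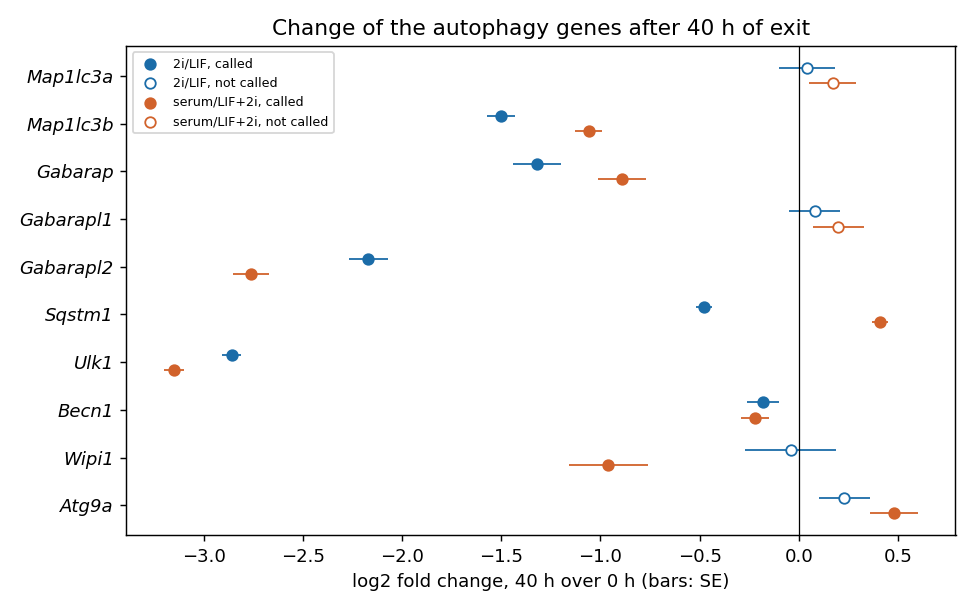
Log2 fold change from 0 to 40 h of exit for each of the 10 members, with a point and a bar of 1 standard error per maintenance medium, filled where the change was called. Ulk1 and Gabarapl2 lie farthest below 0 in both media, and Sqstm1 lies below 0 for 2i/LIF (-0.48) and above 0 for serum/LIF+2i (0.41).

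Ulk1 encodes the kinase that starts autophagosome formation, and its gene (Entrez 22241) lies at chr5:110784488-110810097 on the minus strand. It had the widest range of the members over the 8 groups, 3.15 on the log2 scale. In cells from 2i/LIF its replicates stood at 397 and 387 CPM at 0 h, 186 and 188 CPM at 12 h, 98.6 and 106 CPM at 24 h, and 54.2 and 53.8 CPM at 40 h. Cells from serum/LIF+2i had 417 and 430.0 CPM, then 157 and 164 CPM, 76.6 and 76.5 CPM, and 50.0 and 45.2 CPM. Each time point lay wholly below the one before it in both media, with no overlap of replicates. The change by 40 h was -2.86 ± 0.05 on the log2 scale from 2i/LIF, 7.25 times lower (SE, edgeR adjusted p = 3.9e-81), and -3.15 ± 0.05 from serum/LIF+2i, 8.88 times lower (adjusted p = 1.0e-88). By 12 h it had already fallen by 1.07 ± 0.04 from 2i/LIF (adjusted p = 1.7e-44) and by 1.40 ± 0.04 from serum/LIF+2i (adjusted p = 1.1e-56). The later steps were called as well: it fell by 0.87 from 12 to 24 h and by 0.92 from 24 to 40 h in cells from 2i/LIF, and by 1.07 and 0.68 in cells from serum/LIF+2i.

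Among the ATG8 family the falls were unequal. Gabarapl2 (GATE-16, Entrez 93739), at chr8:111940703-111953612 on the plus strand, fell slowly at first and most between 24 and 40 h on the log2 scale. From 2i/LIF its replicates had 75.1 and 71.4 CPM at 0 h, 53.2 and 58.2 CPM at 12 h, 39.3 and 42.9 CPM at 24 h, and 15.3 and 17.3 CPM at 40 h. Its replicates from serum/LIF+2i had 98.1 and 95.5 CPM, 69.5 and 69.3 CPM, 42.6 and 39.8 CPM, and 14.7 and 13.8 CPM. All replicates of a time point were below those of the one before. The change by 40 h was -2.17 ± 0.10, 4.50 times lower (edgeR adjusted p = 7.7e-42), and -2.76 ± 0.09, 6.78 times lower (adjusted p = 1.1e-57). Of this, the step from 24 to 40 h made up -1.34 ± 0.11 from 2i/LIF (adjusted p = 5.1e-21) and -1.53 ± 0.10 from serum/LIF+2i (adjusted p = 9.2e-29).

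Map1lc3b (LC3B, the ATG8 protein most used to mark autophagosomes; Entrez 67443), at chr8:121590361-121598760 on the plus strand, fell early. Cells from 2i/LIF had 130.3 and 129 CPM at 0 h, 69.1 and 67.0 CPM at 12 h, 52.3 and 59.1 CPM at 24 h, and 47.2 and 44.3 CPM at 40 h. Cells from serum/LIF+2i had 95.5 and 102 CPM, 57.6 and 54.9 CPM, 47.3 and 44.9 CPM, and 49.6 and 45.2 CPM. The replicates at 24 and 40 h overlapped in cells from serum/LIF+2i, and no other neighbouring times did. It fell by 0.93 ± 0.07 (edgeR adjusted p = 2.5e-25) and 0.82 ± 0.07 (adjusted p = 2.0e-20) within 12 h. At 40 h the change was -1.50 ± 0.07, 2.83 times lower, from 2i/LIF (adjusted p = 1.6e-40) and -1.06 ± 0.07, 2.08 times lower, from serum/LIF+2i (adjusted p = 2.5e-29). The steps of -0.29 and -0.28 from 12 to 24 h and from 24 to 40 h in cells from 2i/LIF were called, but the first was -0.20 and not called without replicate 1 of the 24 h group, and the second -0.19 and not called without its replicate 2.

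Gabarap (Entrez 56486), the founding member of the GABARAP branch, at chr11:69991143-69994951 on the plus strand, had a similar course at a lower level. Its replicates stood at 41.5 and 40.4 CPM at 0 h and 15.0 and 17.9 CPM at 40 h from 2i/LIF, and at 34.2 and 28.1 CPM and 16.5 and 17.1 CPM from serum/LIF+2i. The 0 h values lay above all later ones in both media. It was 2.49 times lower at 40 h from 2i/LIF (log2 change -1.32 ± 0.12, edgeR adjusted p = 7.0e-19) and 1.85 times lower from serum/LIF+2i (-0.89 ± 0.12, adjusted p = 1.8e-11). Under the 8 other settings and without each library in turn, the exit effects of Ulk1, Gabarapl2, Map1lc3b and Gabarap were called in the same direction at all times.

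The DNA around the start sites is shown for the 3 members that fell most at 40 h in cells from 2i/LIF, which did so with different time courses. RefSeq (GRCm38.p6) had a promoter for 8 members. Each line below gives 250 bases before the annotated start and 20 bases from it on, on the gene's own strand, 5′ to 3′. The lone capital is the first transcribed base in RefSeq, and the run of capitals in Map1lc3b is a match to TGACNNNGC, the core of the antioxidant response element. In GENCODE, used for the gene positions here, Map1lc3b begins at 121590361 and Ulk1, on the minus strand, at 110810097. Some bases before the capital in both of these windows thus lie within the gene by that annotation. The windows are chr5:110810062-110810331 (minus strand) for Ulk1, chr8:111940453-111940722 (plus strand) for Gabarapl2 and chr8:121590188-121590457 (plus strand) for Map1lc3b.
Ulk1: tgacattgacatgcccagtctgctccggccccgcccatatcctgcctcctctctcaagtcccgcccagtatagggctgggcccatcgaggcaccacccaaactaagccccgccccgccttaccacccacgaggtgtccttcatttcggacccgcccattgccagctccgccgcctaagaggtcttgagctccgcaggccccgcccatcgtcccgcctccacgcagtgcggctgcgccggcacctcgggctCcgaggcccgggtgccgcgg
Gabarapl2: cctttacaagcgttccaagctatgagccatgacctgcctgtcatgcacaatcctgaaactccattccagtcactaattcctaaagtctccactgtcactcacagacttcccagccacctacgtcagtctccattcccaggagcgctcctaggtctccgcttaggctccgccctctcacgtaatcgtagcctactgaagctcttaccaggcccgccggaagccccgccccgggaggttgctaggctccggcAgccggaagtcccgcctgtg
Map1lc3b: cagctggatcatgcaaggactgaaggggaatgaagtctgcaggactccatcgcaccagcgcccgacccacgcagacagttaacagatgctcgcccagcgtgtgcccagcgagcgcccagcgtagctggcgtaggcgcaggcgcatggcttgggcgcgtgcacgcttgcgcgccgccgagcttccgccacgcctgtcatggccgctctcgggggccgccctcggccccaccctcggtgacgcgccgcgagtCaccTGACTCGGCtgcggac
These windows hold 68.9%, 58.1% and 69.6% G and C and 24, 14 and 32 CpG sites, beside medians of 52.6% and 6 over all promoters. At least the G and C content of Ulk1 was found in 11% of all promoters, that of Gabarapl2 in 33.3% and that of Map1lc3b in 9.87%. Over 300 bases and both strands, CACGTG (the E-box core bound by TFEB and its relatives) was in 7.15% of 32817 promoters, its longer form TCACGTGA in 0.975%, TGACNNNGC in 12.4% and TGATGNAA (bound by CHOP and ATF factors) in 3.97%. CACGTG is contained in TCACGTGA, so their hits overlap. Among the 8 members with a promoter, these motifs were found in 0, 0, 1 and 0. The match in Map1lc3b lies after the RefSeq start. By the GENCODE positions the scanned stretch of Wipi1 lies wholly within the gene, and that of Gabarap mostly so. These counts therefore cover the RefSeq windows only. A match describes letters and not a bound site, and a missing match says only that the letters are not in this window.

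The other ATG8 genes kept their level or dipped and came back. Map1lc3a (LC3A, Entrez 66734), at chr2:155276297-155278073 on the plus strand, stood at 16.9 and 16.4 CPM at 0 h and 17.3 and 16.8 CPM at 40 h from 2i/LIF, and at 18.8 and 18.2 CPM and 22.1 and 19.4 CPM from serum/LIF+2i. Its changes from 0 h lay between -0.23 ± 0.14 and 0.17 ± 0.12 on the log2 scale, and none was called, nor was any step between later times. Gabarapl1 (Entrez 57436), at chr6:129533160-129542346 on the plus strand, stood at 21.0 and 23.1 CPM, 13.4 and 17.4 CPM, 20.0 and 18.7 CPM, and 23.2 and 23.5 CPM from 2i/LIF at 0, 12, 24 and 40 h. In cells from serum/LIF+2i it stood at 15.9 and 19.1 CPM, 10.8 and 10.4 CPM, 13.5 and 16.2 CPM, and 19.7 and 20.4 CPM. The 12 h values were the lowest in both media. The drop by 12 h was -0.52 ± 0.14 from 2i/LIF (edgeR adjusted p = 0.00109) and -0.72 ± 0.15 from serum/LIF+2i (adjusted p = 2.4e-05). From serum/LIF+2i it then rose by 0.49 ± 0.15 to 24 h (adjusted p = 0.00336) and by 0.43 ± 0.12 to 40 h (adjusted p = 0.00171). At 40 h it differed from 0 h by 0.08 ± 0.13 and 0.20 ± 0.13, neither called, though the second was called when only library size was scaled for (0.28, adjusted p = 0.0459). Without replicate 1 of the 12 h group from 2i/LIF the drop was -0.35 (adjusted p = 0.0868), and the rises were no longer called without replicate 2 (0.35) or replicate 1 (0.31) of the 24 h group from serum/LIF+2i.

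Because the members fell unequally, the makeup of ATG8 RNA changed. Levels are compared between genes only per length, as CPM per kilobase of the transcript length in the table. The summed level of the 5 ATG8 genes was 217 ± 3.62 CPM per kilobase at 0 h (SD, n = 2), 139.8 ± 2.08 at 12 h, 121 ± 5.45 at 24 h and 88.9 ± 1.87 after 40 h, all from 2i/LIF. In cells from serum/LIF+2i the sum started at 213 ± 2.26 and ended at 90.0 ± 3.77. Gabarapl2 made up 34.5% of the sum at 0 h and 18.7% at 40 h from 2i/LIF, and 46.3% and 16.1% from serum/LIF+2i. Map1lc3a took a rising share, from 7.96% to 19.9% and from 8.99% to 23.8%, although no change in its own level was called. Gabarapl1 went from 5.75% to 14.8% and from 4.63% to 12.6%. Map1lc3b kept 27.1% to 34.9% of the sum at these times.

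**Figure D2:**
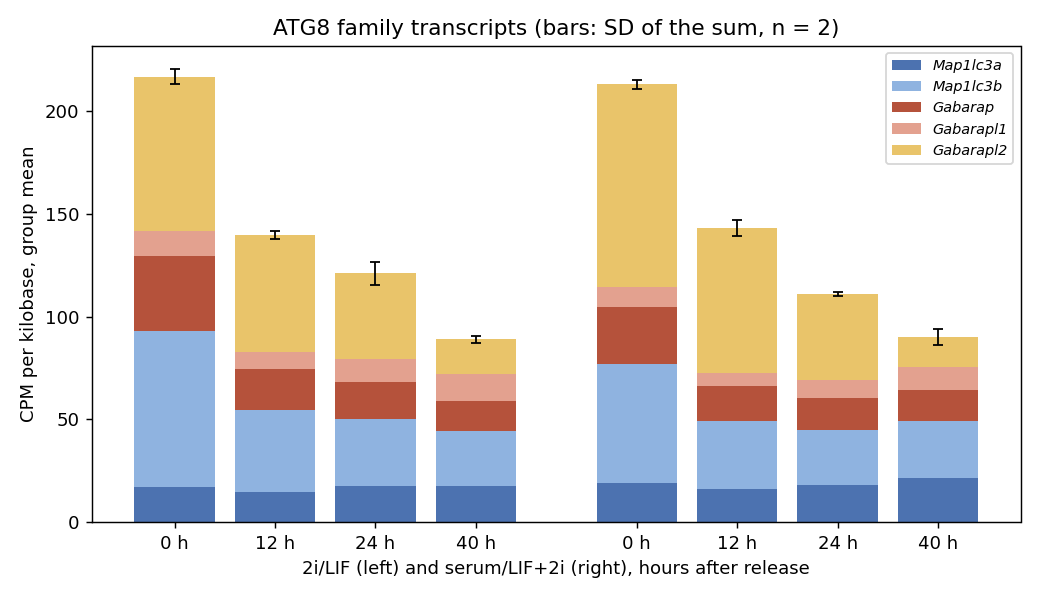
Summed level of the 5 ATG8 family genes (CPM per kilobase) at 0, 12, 24 and 40 h for each maintenance medium, stacked by gene as the mean of 2 libraries, with the SD of the sum as an error bar. The sum falls from 217 to 88.9 for 2i/LIF and from 213 to 90.0 for serum/LIF+2i, and the Gabarapl2 part shrinks most.

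Sqstm1 (p62, Entrez 18412) is the receptor that carries ubiquitinated cargo to the autophagosome and is itself degraded there, and its protein also binds KEAP1. It lies at chr11:50199366-50210827 on the minus strand. From 2i/LIF it stood at 299 and 290.3 CPM at 0 h, 288 and 283 CPM at 12 h, 310.3 and 298 CPM at 24 h, and 212 and 211 CPM at 40 h. From serum/LIF+2i it stood at 197 and 211 CPM, 205 and 198 CPM, 298 and 302 CPM, and 269 and 272 CPM. Cells from 2i/LIF thus held a high level until 24 h and were lower at 40 h, while cells from serum/LIF+2i started lower, rose by 24 h to values that overlapped those from 2i/LIF, and at 40 h were still above their start. The change by 40 h was -0.48 ± 0.04 from 2i/LIF (edgeR adjusted p = 3.3e-19). This fall came after 24 h (-0.52 ± 0.04, adjusted p = 1.6e-21), and the change by 24 h was 0.05 ± 0.04, not called. From serum/LIF+2i the step from 12 to 24 h was 0.57 ± 0.04 (adjusted p = 3.6e-25), the step from 24 to 40 h was -0.15 ± 0.04 (adjusted p = 6.9e-04), and the change by 40 h was 0.41 ± 0.04 (adjusted p = 3.8e-16). The changes by 12 h, -0.05 and -0.02, were not called. The 40 h exit effects kept their direction and call under all settings and without each library.

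**Figure D3:**
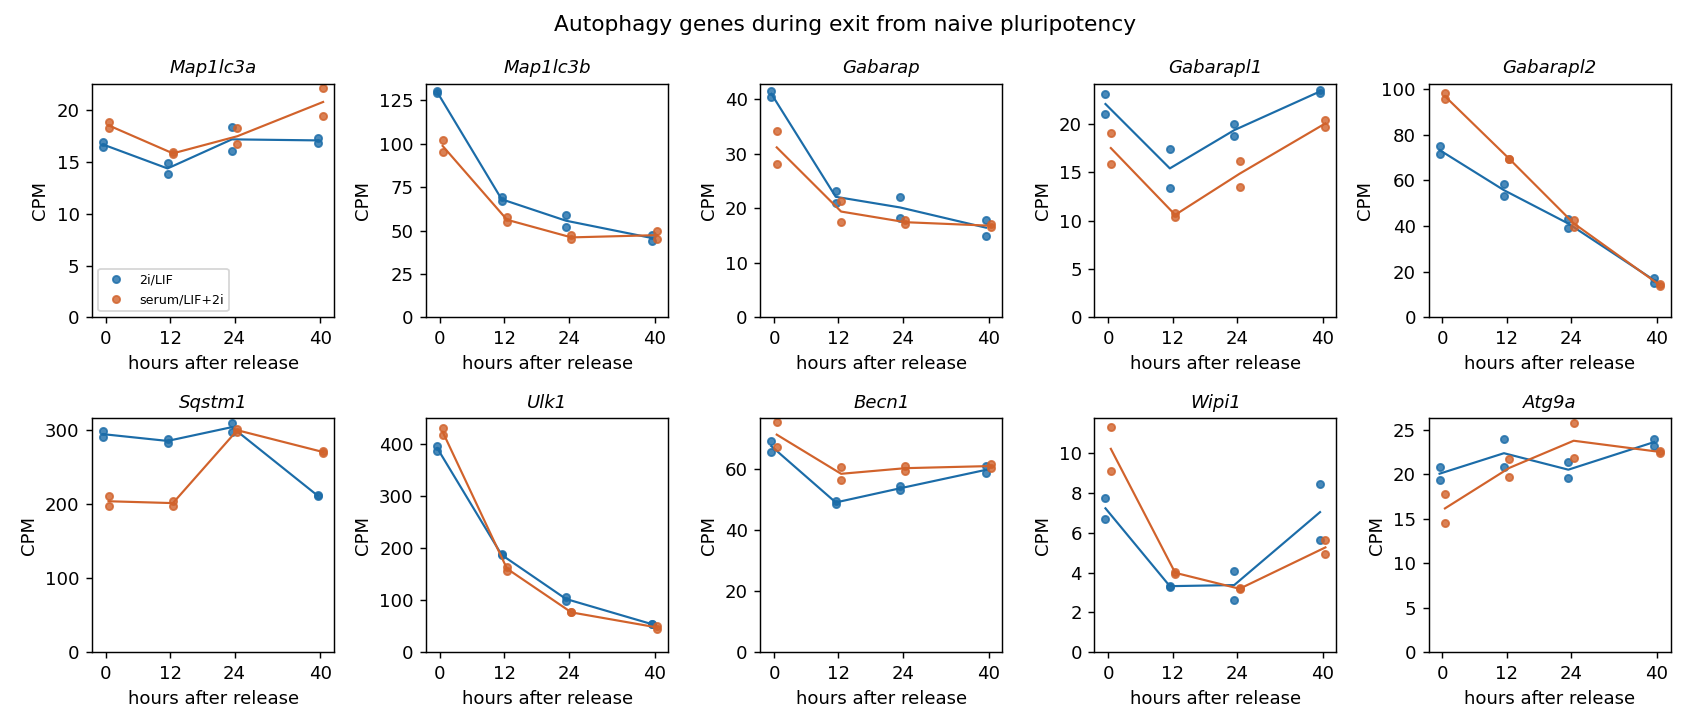
Level of each member (CPM, linear axis from 0, scaled per gene) against hours of exit, with a point for each of the 2 libraries per group and a line through the group means, for both maintenance media. Ulk1 and Gabarapl2 fall at every step, and the Sqstm1 lines cross between 24 and 40 h.

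The remaining 3 members act during nucleation and growth of the membrane. Becn1 (Entrez 56208, chr11:101285952-101302286, minus strand), the core subunit of the class III PI3-kinase complex, fell modestly. It stood at 65.8 and 69.4 CPM at 0 h, 48.7 and 49.6 CPM at 12 h, and 61.0 and 58.7 CPM at 40 h from 2i/LIF, and at 75.4 and 67.4 CPM, 56.4 and 60.7 CPM, and 61.7 and 60.5 CPM from serum/LIF+2i. All later replicates lay below the 0 h ones. Its exit effects were -0.46 ± 0.08, -0.33 ± 0.08 and -0.18 ± 0.08 at 12, 24 and 40 h from 2i/LIF (edgeR adjusted p = 3.2e-07, 1.4e-04 and 0.0317), and -0.28 ± 0.07, -0.24 ± 0.07 and -0.22 ± 0.07 from serum/LIF+2i (adjusted p = 5.5e-04, 0.00180 and 0.00265). The call at 40 h from 2i/LIF was lost under 6 of the 8 other settings and without replicate 2 of the 0 h group (-0.14, adjusted p = 0.216) or of the 40 h group (-0.15). The call at 40 h from serum/LIF+2i was lost under DESeq2 (-0.20, adjusted p = 0.0508) and with library size only (-0.15, adjusted p = 0.0541). Without replicate 1 at 0 h from serum/LIF+2i the effects in that medium were -0.20, -0.16 and -0.14 and were not called.

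Wipi1 (Entrez 52639, chr11:109573331-109611967, minus strand), which binds the lipid made by the class III PI3-kinase complex, had the fewest counts of the members, 19 to 77 per library. From 2i/LIF it had 7.76 and 6.68 CPM at 0 h, 3.29 and 3.34 CPM at 12 h, 2.64 and 4.10 CPM at 24 h, and 5.64 and 8.42 CPM at 40 h. The other medium gave 9.11 and 11.3 CPM, 3.92 and 4.05 CPM, 3.21 and 3.16 CPM, and 4.91 and 5.61 CPM. It dipped in both media, and the 40 h replicates overlapped those of 0 h only in cells from 2i/LIF. The effects at 12 and 24 h were -1.11 ± 0.27 and -1.10 ± 0.27 from 2i/LIF (edgeR adjusted p = 2.6e-04 for both) and -1.35 ± 0.23 and -1.68 ± 0.23 from serum/LIF+2i (adjusted p = 1.4e-07 and 2.2e-10). At 40 h the effect was -0.96 ± 0.20 from serum/LIF+2i (adjusted p = 1.4e-05) and -0.04 ± 0.23, not called and of no fixed sign over the settings, from 2i/LIF. The rise after 24 h was 1.06 ± 0.26 from 2i/LIF (adjusted p = 4.0e-04) and 0.72 ± 0.24 from serum/LIF+2i (adjusted p = 0.00951). It was not called from 2i/LIF without replicate 2 at 40 h (0.75, adjusted p = 0.0556), nor from serum/LIF+2i under DESeq2 (adjusted p = 0.0624) or without replicate 2 of its 24 h group (0.71, adjusted p = 0.0583) or 40 h group (0.61, adjusted p = 0.0826).

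Atg9a (Entrez 245860, chr1:75180860-75192196, minus strand), the membrane scramblase, was the member that went up along with Sqstm1 in cells from serum/LIF+2i. It had 17.8 and 14.5 CPM at 0 h, 19.7 and 21.7 CPM at 12 h, 21.8 and 25.7 CPM at 24 h, and 22.4 and 22.6 CPM at 40 h there, with all later replicates above both 0 h ones. Its effects were 0.37 ± 0.13, 0.56 ± 0.13 and 0.48 ± 0.12 (edgeR adjusted p = 0.0153, 5.8e-05 and 4.0e-04). Cells from 2i/LIF had 19.3 and 20.8 CPM at 0 h and 24.0 and 23.2 CPM at 40 h, a difference of 0.23 ± 0.13 that was not called, but was with library size only (0.30, adjusted p = 0.0301) or with a filter at a mean of 5 CPM (0.29, adjusted p = 0.0344). The effect at 12 h was not called under DESeq2 (0.37, adjusted p = 0.0688) or without replicate 2 at 0 h (0.23) or at 12 h (0.29).

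Between neighbouring times, 3 members were called lower and 0 higher from 12 to 24 h in cells from 2i/LIF (background 17.7% and 17.4%), and 4 lower and 1 higher from 24 to 40 h (24.5% and 22.2%). In cells from serum/LIF+2i the first of these steps had 3 lower and 2 higher (24.2% and 24.2%), and the second 3 lower and 2 higher (24.6% and 25.9%).

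Members also differed between the media before exit. At 0 h, Ulk1 and Gabarapl2 were higher in serum/LIF+2i, and Sqstm1, Map1lc3b, Gabarap and Gabarapl1 were lower, which makes 2 higher and 4 lower of 10 (background 14.6% and 18.4%). The largest difference was that of Sqstm1, -0.53 ± 0.04 on the log2 scale (edgeR adjusted p = 1.5e-20), with 197 and 211 CPM against 299 and 290.3 CPM. Gabarapl2 differed by 0.40 ± 0.07 (adjusted p = 1.4e-06) and Map1lc3b by -0.39 ± 0.06 (adjusted p = 1.3e-07), each with no overlap of replicates. Gabarap differed by -0.39 ± 0.11 (adjusted p = 0.00212), Gabarapl1 by -0.34 ± 0.14 (adjusted p = 0.0480) and Ulk1 by 0.11 ± 0.04 (adjusted p = 0.0270). The last 3 were less secure, since Gabarap was at -0.26 (adjusted p = 0.113) without replicate 2 at 0 h from serum/LIF+2i, Gabarapl1 lost its call under 6 of the 8 other settings (-0.34 to -0.32) and without either replicate from 2i/LIF (-0.41 and -0.27) or replicate 1 from serum/LIF+2i (-0.21). Ulk1 lost it under DESeq2 (0.11, adjusted p = 0.152) and without either replicate from 2i/LIF (0.12 and 0.09) or replicate 2 from serum/LIF+2i (0.08).

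During exit the differences of Sqstm1 and Ulk1 turned, and those of Gabarapl2 and Map1lc3b were no longer called by 40 h. The number of members called was 2 higher and 4 lower at 12 h (background 14.8% and 15.5%), 0 higher and 3 lower at 24 h (14.1% and 17.0%), and 1 higher and 1 lower at 40 h (13.9% and 13.4%). Sqstm1 was lower from serum/LIF+2i at 12 h (-0.50 ± 0.04, edgeR adjusted p = 7.3e-20), was at -0.02 ± 0.04 at 24 h (adjusted p = 0.725), and was higher at 40 h (0.35 ± 0.04, adjusted p = 2.4e-12). Map1lc3b went from -0.28 ± 0.07 and -0.27 ± 0.08 at 12 and 24 h (adjusted p = 0.00156 and 0.00422) to 0.05 ± 0.08 at 40 h (adjusted p = 0.660). Without replicate 2 at 24 h of cells from 2i/LIF or of cells from serum/LIF+2i, the 24 h difference was -0.18 or -0.23 and was not called. Gabarapl2 went from 0.32 ± 0.07 at 12 h (adjusted p = 3.4e-04) to 0.01 ± 0.09 at 24 h (adjusted p = 0.972) and -0.19 ± 0.13 at 40 h, the last not called. Ulk1 was lower from serum/LIF+2i at 12 h (-0.22 ± 0.05, adjusted p = 1.1e-04), 24 h (-0.42 ± 0.06, adjusted p = 2.0e-09) and 40 h (-0.18 ± 0.07, adjusted p = 0.0360), and the 40 h call was lost under 4 of the 8 other settings (-0.19 to -0.15) and without either replicate from 2i/LIF (-0.17 and -0.19) or replicate 2 from serum/LIF+2i (-0.12).

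Becn1 was higher from serum/LIF+2i at 12 h (0.26 ± 0.08, edgeR adjusted p = 0.00593), and Gabarapl1 was lower at 12 h (-0.54 ± 0.15, adjusted p = 0.00346) and 24 h (-0.38 ± 0.13, adjusted p = 0.0223). Leaving out a library ended each of these: Becn1 without replicate 1 of the 12 h group from 2i/LIF (0.24) or replicate 2 of that from serum/LIF+2i (0.20), and Gabarapl1 at 12 h without replicate 2 from 2i/LIF (-0.34, adjusted p = 0.209). The 24 h difference of Gabarapl1 was not called without replicate 1 of either group (-0.33 and -0.26) or under DESeq2.

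**Figure D4:**
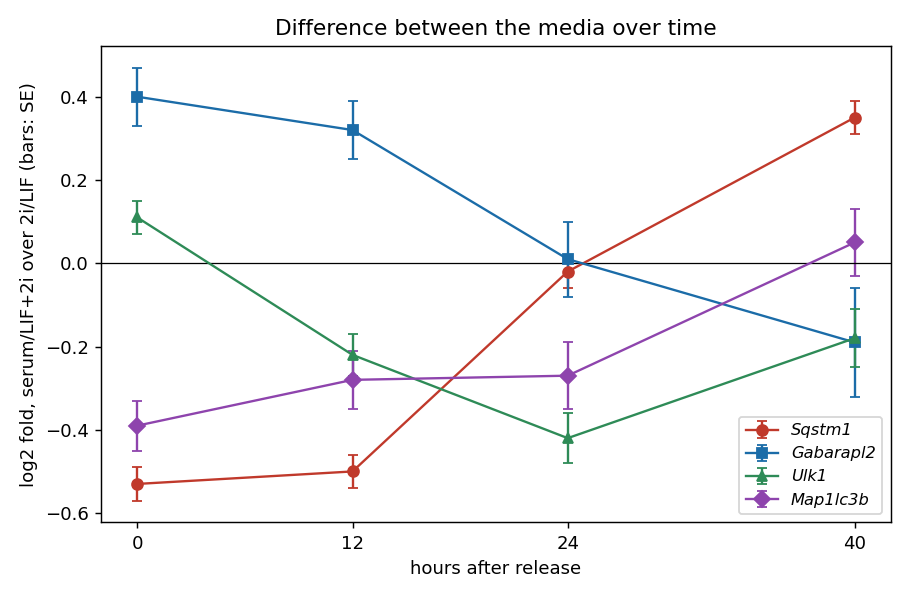
Difference between the media (serum/LIF+2i minus 2i/LIF, log2) for Sqstm1, Gabarapl2, Ulk1 and Map1lc3b at 0, 12, 24 and 40 h, with bars of 1 standard error. Sqstm1 moves from -0.53 at 0 h to 0.35 at 40 h, while Gabarapl2 moves from 0.40 to -0.19.

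Whether exit itself acted differently from the 2 media was tested as the exit effect from serum/LIF+2i minus that from 2i/LIF. The number of members with a higher (more positive) and a lower value was 0 and 1 after 12 h (background 4.80% and 4.40%), 2 and 2 after 24 h (9.77% and 11.0%), and 3 and 3 after 40 h (14.8% and 12.8%). Sqstm1 differed by 0.51 ± 0.06 at 24 h (edgeR adjusted p = 3.6e-12) and by 0.89 ± 0.06 at 40 h (adjusted p = 9.8e-26), the most positive value among the members at 40 h, beside 0.03 ± 0.06 at 12 h. The fall of Ulk1 was deeper from serum/LIF+2i, by -0.33 ± 0.06, -0.53 ± 0.07 and -0.29 ± 0.08 at 12, 24 and 40 h (adjusted p = 4.3e-05, 1.4e-09 and 0.00252), and so was that of Gabarapl2, by -0.40 ± 0.11 at 24 h (adjusted p = 0.00485) and -0.59 ± 0.15 at 40 h (adjusted p = 7.8e-04). The falls of Map1lc3b and Gabarap were shallower from serum/LIF+2i, by 0.44 ± 0.10 (adjusted p = 2.1e-04) and 0.43 ± 0.17 (adjusted p = 0.0450) at 40 h. These differences share the 0 h libraries, where these 5 genes already differed between the media.

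Several of these calls rested on single libraries. That of Gabarap at 40 h was lost under 4 of the 8 other settings (0.41 to 0.43) and on leaving out any of 6 libraries, the lowest value being 0.29 without replicate 2 at 0 h from serum/LIF+2i. Wipi1 differed by -0.92 ± 0.30 at 40 h (edgeR adjusted p = 0.0150), but by -0.91 under DESeq2 (adjusted p = 0.126) and by -0.61 without replicate 2 at 40 h from 2i/LIF (adjusted p = 0.209). It was also lost without replicate 2 at 0 h of either medium (-0.81 and -0.75) and without replicate 1 at 40 h from serum/LIF+2i (-0.82). Atg9a differed by 0.53 ± 0.19 at 24 h (adjusted p = 0.0292), which was not called under DESeq2 (0.54, adjusted p = 0.119) or without replicate 2 of any of the 4 groups in the comparison (0.40 to 0.48). That of Gabarapl2 at 24 h was -0.34 (adjusted p = 0.0615) without replicate 2 of the 24 h group from 2i/LIF and -0.38 (adjusted p = 0.0581) under DESeq2. That of Ulk1 at 40 h was -0.22 (adjusted p = 0.0556) without replicate 2 of the 40 h group from serum/LIF+2i. The differences of Sqstm1 at 24 and 40 h, of Map1lc3b and Gabarapl2 at 40 h and of Ulk1 at 12 and 24 h were called under all 8 other settings and without each library.

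The order of the members by level per length changed with exit. At 0 h in 2i/LIF, Sqstm1 was highest with a mean of 147 CPM per kilobase, followed by Map1lc3b at 75.6, Ulk1 at 75.4 and Gabarapl2 at 74.8, whose replicates overlapped each other. Gabarap (36.5), Becn1 (33.3), Map1lc3a (17.3), Gabarapl1 (12.4), Atg9a (5.33) and Wipi1 (3.97 CPM per kilobase) came after them. At 40 h Sqstm1 was still highest (106), but Becn1 (29.5) and Map1lc3b (26.7) came next, then Map1lc3a (17.7), Gabarapl2 (16.6) and Gabarap (14.7), which overlapped their neighbours in that order, and Gabarapl1 (13.2). Ulk1 had dropped from the third to the eighth place, at 10.4 CPM per kilobase, with Atg9a (6.28) and Wipi1 (3.87) below it. In serum/LIF+2i at 0 h, Sqstm1 (102) and Gabarapl2 (98.8) overlapped at the top, with Ulk1 at 81.5, Map1lc3b at 57.7 and Becn1 at 35.2. At 40 h in that series Sqstm1 stood at 135, Becn1 at 30.1, Map1lc3b at 27.7 and Map1lc3a at 21.5 CPM per kilobase. Gabarap (15.0), Gabarapl2 (14.5), Gabarapl1 (11.3) and Ulk1 (9.16 CPM per kilobase) followed. Only Gabarap and Gabarapl2 overlapped among all of these.

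For the 3 members with the widest range, the genes with the most similar course over the 16 libraries were found by the root mean square difference of centred log2 CPM among 10694 genes. For Ulk1 they were B4galt6 (0.14), a glycolipid galactosyltransferase, Nfatc2ip (0.14) and the tetraspanin Cd9 (0.15). For Gabarapl2 they were the secreted phosphatidylserine-binding protein gene Mfge8 (0.21), the calcium pump gene Atp2b4 (0.21) and Zfp975 (0.22). For Wipi1 they were the laminin chain gene Lama5 (0.22), the prolyl hydroxylase subunit gene P4ha1 (0.24) and the cation channel gene Trpm4 (0.25). When the 8 group means were used in place of the libraries, 6 of these 9 were found again.

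The rest of the pathway was read from 52 further autophagy genes, all of which were tested. At 40 h, 9 were higher and 27 lower from 2i/LIF, and 15 were higher and 26 lower from serum/LIF+2i, with medians of -0.20 and -0.16. Over all genes, 34.1% were higher and 34.7% lower from 2i/LIF, and 35.3% and 35.3% from serum/LIF+2i, and every 40 h count by step below is to be read against these shares. In lists this short, counts such as 2 and 2 of 6 are near them. In the counts by step that follow, members are included. Of 5 genes of the ULK complex, 1 was higher and 3 lower from 2i/LIF, and 2 and 3 from serum/LIF+2i. While Ulk1 fell, Ulk2, which encodes the related kinase, rose from a mean of 2.86 to 12.2 CPM (log2 change 2.06 ± 0.25, edgeR adjusted p = 1.3e-12) and from 2.86 to 11.8 CPM (2.02 ± 0.23, adjusted p = 1.4e-13). Atg13, the regulatory subunit of the complex, fell by 1.40 and 1.21, and Atg101 fell by 0.46 and 0.50.

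Of 8 genes of the class III PI3-kinase complexes, to which Becn1 belongs, 1 was higher and 5 lower from 2i/LIF, and 2 and 4 from serum/LIF+2i. Atg14, which directs the complex to autophagy, had log2 changes of -1.45 (edgeR adjusted p = 5.9e-31) and -1.30, and Pik3r4, its scaffold, of -0.71 and -0.84. Of 5 effectors of its lipid product, Wipi1 included, 1 was higher and 1 lower from 2i/LIF, and 1 and 3 from serum/LIF+2i. Wdr45, a relative of Wipi1, had changes of -1.15 and -1.61 and Wipi2 of 0.60 and 0.68. Of the 6 genes around ATG9 and lipid transfer, Atg9a included, 2 were higher and 2 lower from 2i/LIF, and 3 and 2 from serum/LIF+2i. Atg2a, which encodes a lipid transfer protein, fell by 1.41 and 0.99, and Atg9b, the paralogue of Atg9a, rose by 0.91 and 0.75 (0.41 and not called without replicate 1 at 0 h from serum/LIF+2i). Of 7 conjugation enzymes, 0 were higher and 4 lower from 2i/LIF, and 1 and 3 from serum/LIF+2i, with Atg7, the E1-like enzyme that activates ATG8 proteins, at -1.04 and -0.77. Of the 4 ATG4 proteases, which trim ATG8 proteins, 3 were lower from 2i/LIF and 2 from serum/LIF+2i, with Atg4c at -1.36 and -1.03 and Atg4b at -0.95 and -0.74.

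Among 14 receptor genes, Sqstm1 included, 3 were higher and 7 lower from 2i/LIF, and 7 and 7 from serum/LIF+2i. Of those that fell, Retreg1 changed by -0.80 and -0.72, and Fundc1 by -0.46 from serum/LIF+2i. Bnip3, a mitophagy receptor, rose from a mean of 9.16 to 60.3 CPM from 2i/LIF (2.72 ± 0.13, edgeR adjusted p = 3.7e-41) and from 17.7 to 40.4 CPM from serum/LIF+2i (1.19 ± 0.11, adjusted p = 8.6e-19). The difference of these exit effects was -1.53 ± 0.18 (adjusted p = 1.1e-11), opposite in sign to that of Sqstm1. Optn, a receptor that like Sqstm1 binds ubiquitin, rose by 1.14 and 0.35, with a difference of -0.79 (adjusted p = 4.0e-05). The rise of 0.35 was not called without replicate 2 at 0 h (0.24) or at 40 h (0.21) from serum/LIF+2i. Of 8 genes of autophagosome fusion, 1 was higher and 5 lower in each medium, among them Snap29, a SNARE of that step, at -0.95 and -0.79. The gene higher from serum/LIF+2i was Stx17, at 0.99. The difference of exit effects was called higher for 2 of these genes and lower for 1 (background 14.8% and 12.8%). For Stx17 it was 1.08, and it rested in part on single libraries (0.86 without replicate 2 at 0 h from serum/LIF+2i).

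**Figure D5:**
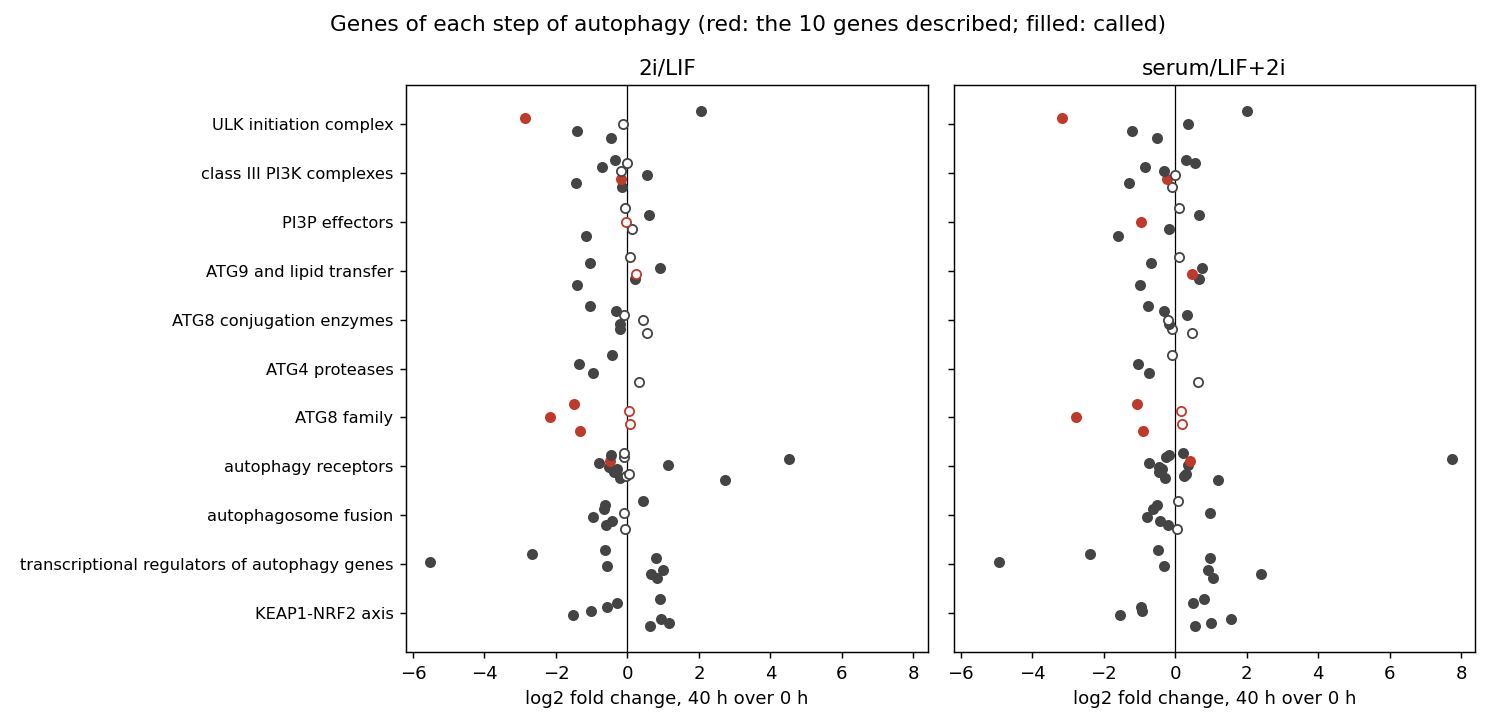
Log2 fold change from 0 to 40 h for all genes of each step list, with 1 panel per maintenance medium, members in red and called genes as filled points. The receptor far to the right is Stbd1, a glycogen-binding receptor at 0 or 1 counts per library at 0 h, whose fitted change depends on the prior count.

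Of 8 transcriptional regulators of this machinery, 4 were higher and 4 lower at 40 h in each medium, beside 34.1% and 34.7% of all genes from 2i/LIF and 35.3% and 35.3% from serum/LIF+2i. Mitf fell from a mean of 76.0 to 1.61 CPM from 2i/LIF (-5.53 ± 0.17, edgeR adjusted p = 9.8e-56) and from 84.5 to 2.72 CPM from serum/LIF+2i (-4.94 ± 0.14, adjusted p = 4.0e-61). Tfeb, which encodes a related factor known for activating lysosomal and autophagy genes, fell from 45.6 to 7.21 CPM (-2.66 ± 0.14, adjusted p = 6.6e-34) and from 32.5 to 6.20 CPM (-2.39 ± 0.14, adjusted p = 2.4e-30). Tfe3, the remaining member of that family in the list, was named after its values were seen: it went from 114 to 200 CPM (0.81 ± 0.05) and from 117 to 232 CPM (0.98 ± 0.05). Foxo1 rose by 0.99 ± 0.09 from 2i/LIF (edgeR adjusted p = 7.0e-19). Ddit3 (CHOP), a factor of the stress response, rose by 0.66 from 2i/LIF and 2.39 from serum/LIF+2i, with a difference of 1.74 ± 0.22. Its rise from 2i/LIF was 0.30 and not called without replicate 2 at 40 h.

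Since the protein of Sqstm1 binds KEAP1, the KEAP1-NRF2 genes were read as a list of 8. At 0 h 0 were higher and 6 lower in serum/LIF+2i (background 14.6% and 18.4%), with Srxn1 at -0.87, Nqo1 at -0.45 and Nfe2l2, which encodes NRF2, at -0.32. By 40 h, 4 were higher and 4 lower from 2i/LIF (background 34.1% and 34.7%), and 5 and 3 from serum/LIF+2i (35.3% and 35.3%). Keap1 fell by 1.52 and 1.53 and Nfe2l2 by 1.03 and 0.92, while Gclm rose by 1.17 and 1.01. Hmox1 rose by 1.56 from serum/LIF+2i. The difference of the exit effects at 40 h was called higher for 2 of the 8 genes and lower for 1 (background 14.8% and 12.8%). It was 0.62 for Hmox1 and -0.39 for Nqo1, the latter opposite in sign to that of Sqstm1. Srxn1 was the gene of this list that, like Sqstm1, was lower at 40 h from 2i/LIF (-0.30) and higher from serum/LIF+2i (0.49), with a difference between the exit effects of 0.79. Without replicate 1 at 0 h from 2i/LIF the fall was -0.16 and was not called.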

How the data were processed

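RNA from 16 libraries was measured by poly(A) RNA-seq (TRIzol, a stranded kit, per the labels' protocols). The authors deposited whole-number counts per gene that are not normalized, with a gene length in bases, per the file headers. The submitters' processing notes name fastp, STAR, featureCounts and mm10; the annotation and the strand setting are not given in the sources used here. Titles gave group and replicate; the protocol text gives only 24 and 40 h for cells from serum/LIF+2i, and titles were followed. The members and all gene lists were chosen with earlier results of these data known.

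Counts were filtered with filterByExpr of edgeR 4.0.16 (minimum count 10, minimum total count 15), scaled by TMM and fitted in R 4.3.3 in 1 model with a term per group (8 residual degrees of freedom). The test was the two-sided robust quasi-likelihood F test with Benjamini-Hochberg adjustment over 14288 genes, for 17 comparisons. Standard errors were derived from the F statistic. CPM uses TMM-scaled totals. The procedure was also run on simulated counts, independent between libraries and changed only in the 40 h group from serum/LIF+2i. That setting cannot check the scaling or a dependence between replicates in these data. Ribosomal RNA genes took 0.468% to 1.77% of counts.

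All members are named. In 4 comparisons (both exit effects at 40 h, the 0 h medium difference and the 40 h difference of exit effects), each other list could give up to 3 names, those changing most among called genes averaging 5 CPM or more. The alternatives were DESeq2 1.42.0, 2 other scalings, 2 other filters, no ribosomal RNA genes, only the groups compared, a replicate block, and each library left out. Where that left 1 library in a group, it was assumed to vary like the other groups.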

Additional observations from a re-analysis of the deposited data

Results flagged for a closer look

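The exit effect from serum/LIF+2i minus that from 2i/LIF was called (edgeR, log2 scale) for 7 members at 12, 24 or 40 h. By time, 1 of 10 members was called at 12 h, 4 at 24 h and 6 at 40 h. Ulk1 gave -0.33 (12 h), -0.53 (24 h) and -0.29 (40 h). Gabarapl2 differed by -0.40 at 24 h and -0.59 at 40 h, and Wipi1 by -0.92 at 40 h. Sqstm1 differed by 0.51 at 24 h and 0.89 at 40 h, Atg9a by 0.53 at 24 h, Map1lc3b by 0.44 at 40 h and Gabarap by 0.43 at 40 h. All share the 0 h libraries of both media. Over all genes, 4.80% were higher and 4.40% lower in this test at 12 h, 9.77% and 11.0% at 24 h, and 14.8% and 12.8% at 40 h. The share of all genes called at any of these times was not computed, so the count of 7 has no matching background. The calls of Gabarap, Wipi1 and Atg9a were lost under DESeq2 (adjusted p = 0.183, 0.126 and 0.119) and without each of several single libraries. That of Gabarapl2 at 24 h was lost under DESeq2 (adjusted p = 0.0581) and without replicate 2 of the 24 h group from 2i/LIF (-0.34), and that of Ulk1 at 40 h without replicate 2 of the 40 h group from serum/LIF+2i (-0.22).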

How the results depend on the processing

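The number of members called stayed within 1.5 times of its value in all but 2 comparisons. For the medium difference at 40 h it was 2 and became 1 under DESeq2 and with only the groups compared, and 1 to 2 without a library in turn. For the interaction at 24 h it was 4 and became 2 under DESeq2, and 2 to 4 without a library. For the 52 other autophagy genes, the number called under DESeq2 was 11 in place of 19, 13 in place of 20 and 5 in place of 13 for the medium difference at 12, 24 and 40 h, and 1 in place of 5, 6 in place of 12 and 11 in place of 17 for the interaction at 12, 24 and 40 h. Without a library in turn it was 11 to 17 (17 with all), 10 to 16, 12 to 16 and 5 to 10 for the medium difference at 0, 12, 24 and 40 h, and 2 to 5, 7 to 11 and 12 to 16 for the interaction at 12, 24 and 40 h. The cause was not tested.

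Signs turned only for values near 0 that were not called. The 40 h effect of Wipi1 from 2i/LIF (-0.04) was 0.03 with library size only and 0.01 with a mean of at least 5 CPM, and -0.35 to 0.23 without a library. The 12 h effect of Sqstm1 from serum/LIF+2i (-0.02) was 0.01 with no filter beyond 1 count and -0.07 to 0.04 without a library, and its medium difference at 24 h (-0.02) was 0.00 with library size only and -0.05 to 0.01 without a library. Without a library, the 24 h effects from 2i/LIF were -0.06 to 0.14 for Map1lc3a and -0.03 to 0.09 for Atg9a, the medium differences were -0.06 to 0.07 for Gabarapl2 at 24 h and -0.02 to 0.11 for Map1lc3b at 40 h, and the interaction of Sqstm1 at 12 h was -0.02 to 0.09.

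With the replicate number as a block, 6 members were called at 40 h from 2i/LIF and 8 from serum/LIF+2i, as without it, and no count of members changed. Deviations of same-numbered libraries correlated by -0.02 to 0.03 over 28 pairs of groups. Counting noise in single genes can hide a shared part, so this does not decide whether same-numbered libraries were paired. No scaling moved the median of all genes by over 0.1, but the share of calls in the interaction at 12 h that were higher was 52.2% with TMM and 41.3% without ribosomal RNA genes. With 2 libraries a group, members at few counts, such as Wipi1, have wide errors.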
